A study of Mus musculus with 6 samples.

Results

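The comparison described here set TCRab CD8aa lymphocytes against TCRab CD8ab lymphocytes, 2 kinds of T cell that sit within the epithelium of the mouse small intestine and carry the same class of antigen receptor but different forms of CD8. Members were the arrays whose sample labels gave those subsets, 2 of each and so 4 of the 6 arrays of the series, and the probe sets bright enough to be tested on them, 7760 of 12488. Both subsets came from C57BL/6 mice younger than 8 weeks, were untreated and freshly isolated, and were taken by cell sorting from a pool of intraepithelial lymphocytes (IEL) of 20 mice. The third sorted subset of the same pools, TCRgd CD8aa (2 arrays, some of whose titles write TCRgb), enters the estimate of the spread and 1 comparison at the end. The whole procedure was done in 2 experiments with a new pool each time, so each subset has 1 array from each experiment. Total RNA was labelled with biotin and hybridised to Affymetrix arrays. Each array is a pool, so the spread between arrays is not that between mice, and in sorted bulk RNA fewer cells with a transcript and less of it per cell cannot be told apart.

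T cells of the conventional cytotoxic lineage carry CD8 as a dimer of an alpha and a beta chain, which acts as a co-receptor when the T cell receptor meets peptide on MHC class I. Many IEL instead carry a dimer of 2 alpha chains, which binds the thymic leukaemia antigen of the gut epithelium and is a poor co-receptor. TCRab CD8aa IEL are known as natural IEL that arise from self-reactive thymic precursors, whereas TCRab CD8ab IEL largely derive from peripheral T cells that met antigen and then moved to the gut.

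Values are log2 of the deposited signal. Signals under 15.3, the 20th percentile of all values, were raised to that floor, which is 3.94 on the log2 scale. A probe set was tested if at least 2 of the 4 arrays lay above signal 56.4, the 40th percentile. Differences are TCRab CD8aa minus TCRab CD8ab, averaged over the 2 experiments, and ± gives limma's standard error (SE, n = 2 arrays in each subset). A probe set was called when its Benjamini-Hochberg adjusted p in limma, over all 7760 tested and with the experiment as a block, was under 0.05. Adjusted p-values below are from that fit.

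Of the tested probe sets, 42 (0.541%) were called higher and 25 (0.322%) lower in TCRab CD8aa, 67 in all. Those with a single gene symbol numbered 61 and stood for 55 genes, 33 higher and 22 lower. The called differences ran from 1.55 to 6.02 upward and from -2.17 to -8.23 downward, and the median difference over all tested probe sets was -0.06. In 65 of the 67, both arrays of one subset lay above both arrays of the other. Over all tested probe sets that was so for 785 (10.1%) in the upward direction and 967 (12.5%) in the downward direction. The calls depend on the model. Without a block for the experiment limma called 0 probe sets, the smallest adjusted p was 0.293 and 183 had an unadjusted p under 0.05, against 818 with the block. With the block but no filter on dim probe sets the count was 0 as well, although 922 had an unadjusted p under 0.05 (lowest adjusted p 0.522), and without the intensity trend of the variance it called 14. Of the 67 called probe sets, 61 had an unadjusted p under 0.05 without the block. They were picked for large differences on these same arrays, so that number does not support the calls. The lists of genes used below are counted with 1 probe set for each gene, over which 32 of 5775 genes were called higher and 21 lower, with a median of -0.05. Of those genes, 10.2% lay higher and 12.3% lower without overlap of the arrays. A gene that is dim in one subset can pass the filter through the other alone, so counts over the tested genes of a list describe it and do not test it.

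**Figure D1:**
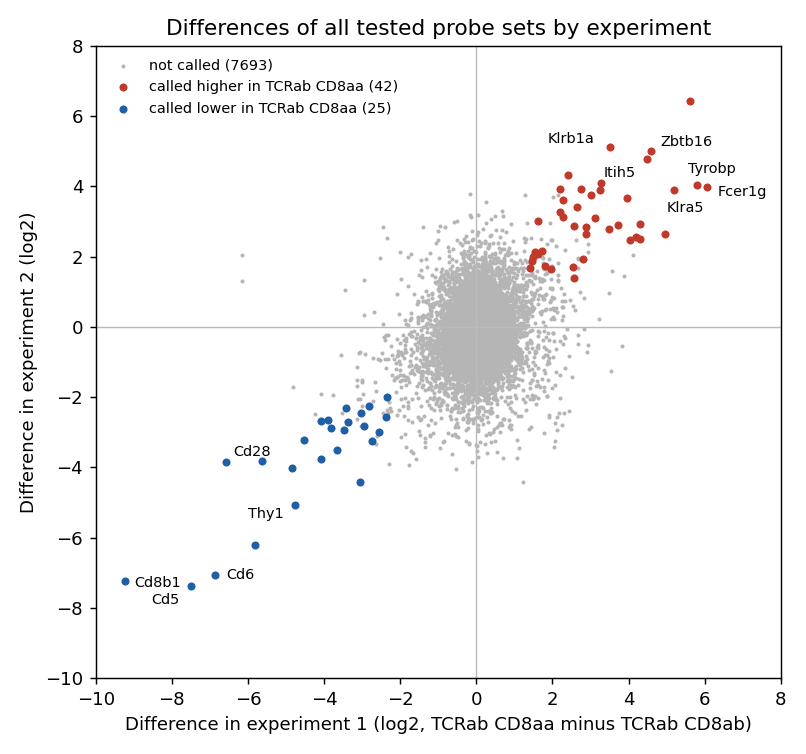
Difference between TCRab CD8aa and TCRab CD8ab (log2) in experiment 1 (x axis) against experiment 2 (y axis) for each of the 7760 tested probe sets, with called probe sets in red (42 higher) and blue (25 lower). The called probe sets lie in the upper right and lower left, where both experiments gave a difference of the same sign, and the rest gather around 0.

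The arrays differed more by experiment than by subset. Pearson's r across probe sets was 0.818 between the 2 TCRab CD8aa arrays and 0.807 between the 2 TCRab CD8ab arrays, but 0.928 and 0.894 between the subsets within experiments 1 and 2. The 3′ to 5′ signal ratio of the actin control, often read as a measure of RNA integrity, was 1.76 and 1.41 in the TCRab CD8aa and TCRab CD8ab arrays of experiment 1. It was 44.9 and 52.2 in those of experiment 2. The ratio thus moved with the experiment more than with the subset. Whether RNA integrity or another step of the procedure set it was not tested, nor was its part in the value of any gene. The differences of the 2 experiments had the same sign in 53.7% of all tested probe sets, and in 75.5% of the 470 whose difference was at least 1 in both.

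The transcripts of the sort markers separated the subsets as labelled. Cd8b1, the CD8 beta chain, stood at 4.88 and 7.51 in the TCRab CD8aa arrays of experiments 1 and 2 and at 14.11 and 14.75 in the TCRab CD8ab arrays, a difference of -8.23 ± 0.76 (adjusted p = 0.00202). Cd8a, the alpha chain that both forms share, stood at 14.09 and 12.95 against 13.99 and 12.69, a difference of 0.18 ± 0.28 that was not called (adjusted p = 0.872). Cd3d, Cd3e and Cd3g, the signalling subunits of the T cell receptor complex, differed by 0.28 ± 0.32, 0.10 ± 0.30 and 0.44 ± 0.30, and none was called. The sign for Cd3d turned to -0.11 without the TCRab CD8aa array of experiment 2, and that for Cd3e to -0.20 without the TCRab CD8ab array of experiment 1. Cd247, the zeta chain of the same complex, stood at 8.51 and 7.07 against 10.39 and 9.11. Its arrays did not overlap, but the difference of -1.96 ± 0.39 missed the threshold (adjusted p = 0.0698).

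**Figure D2:**
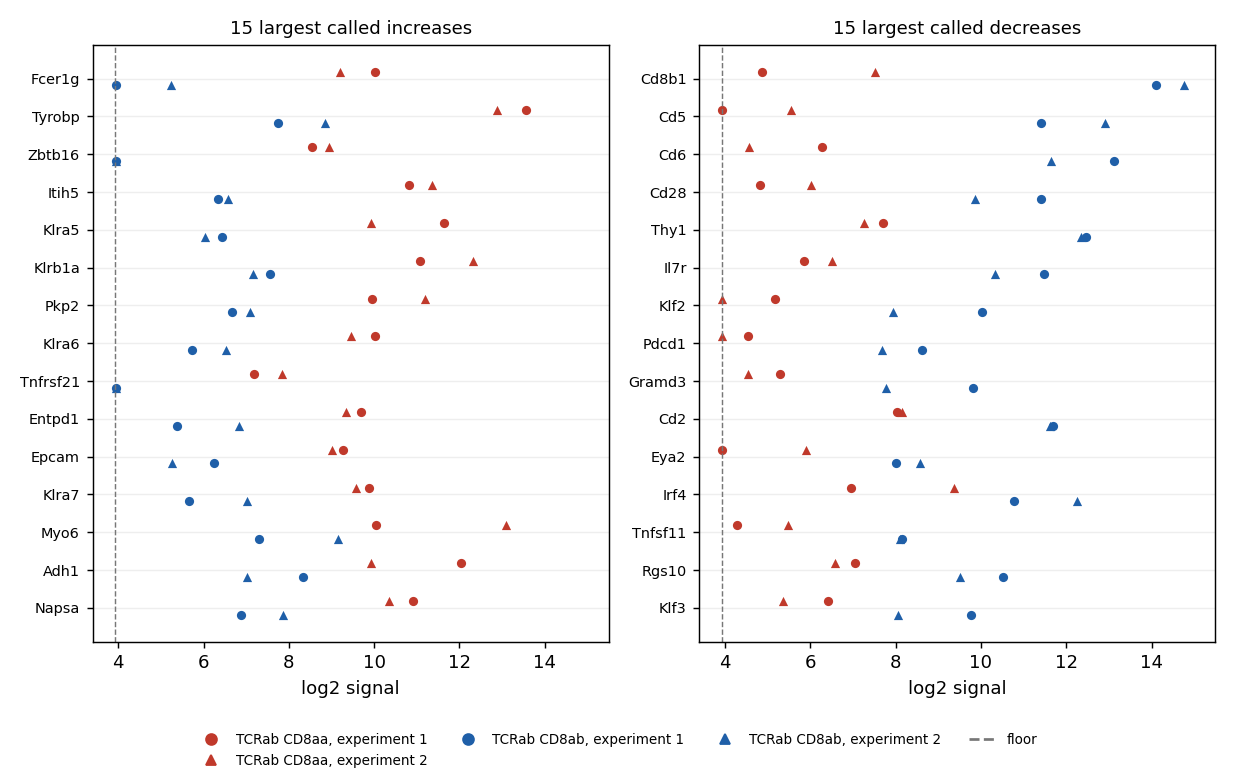
Log2 signal on each of the 4 arrays for the 15 genes with the largest called increase (left) and the 15 with the largest called decrease (right) in TCRab CD8aa; circles are experiment 1, triangles experiment 2, and the dashed line is the floor. In each gene shown both red points lie on one side of both blue points.

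Surface molecules of conventional T cells formed the largest block of falls. Of 15 genes of that list with a probe set of their own 13 were tested. Of these, 6 were called lower and 0 higher, and the median difference was -2.44. Without overlap of the arrays 10 lay lower, beside 12.3% over all genes. Cd5, a scavenger receptor family glycoprotein that dampens T cell receptor signals, was at the floor in experiment 1 and at 5.56 in experiment 2 in TCRab CD8aa, against 11.42 and 12.92 in TCRab CD8ab. That is a fall of -7.43 ± 0.47 (adjusted p = 0.00062). Cd6, its close relative and its neighbour on the chromosome with no protein-coding gene between them, stood at 6.28 and 4.57 against 13.13 and 11.64 (-6.96 ± 0.61, adjusted p = 0.00173), and a second Cd6 probe set gave -6.00. Thy1, the glycosylphosphatidylinositol-linked Thy-1 antigen, stood at 7.70 and 7.26 against 12.47 and 12.34 (-4.92 ± 0.36). Cd2, an adhesion receptor for CD48, stood at 8.03 and 8.14 against 11.70 and 11.63 (-3.58 ± 0.61). It was measured well above the floor in both subsets, unlike Cd5. Il7r, the alpha chain of the interleukin-7 receptor that naive and memory T cells need for survival, stood at 5.85 and 6.51 against 11.48 and 10.32 (-4.72 ± 0.81, adjusted p = 0.0357).

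The 250 bases before the start of Cd5 (GRCm38.p6, chr19:10738975-10739224, minus strand, RefSeq) are shown because this gene had the largest fall after Cd8b1 and because Klf2 and Klf3, factors that bind CACCC boxes, were also called lower. Capitals here and in the promoters below mark CACCC or GGGTG, the box on either strand, and GGAAG or CTTCC, a core that ETS factors bind. In the Cd5 window the ETS core occurs 2 times and the box 0 times.
Cd5: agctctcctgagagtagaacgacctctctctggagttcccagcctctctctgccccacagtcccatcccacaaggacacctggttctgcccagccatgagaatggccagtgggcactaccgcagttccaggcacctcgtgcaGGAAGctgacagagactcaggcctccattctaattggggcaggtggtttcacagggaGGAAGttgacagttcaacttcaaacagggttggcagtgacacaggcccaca
Over all promoter windows of this length in the table, 51.3% of 27025 held the CACCC box and 63.7% held the ETS core. Among the called genes found in the table, the box was in 12 of 14 (85.7%) of those lower and 14 of 25 (56.0%) of those higher, and the core in 10 of 14 (71.4%) and 13 of 25 (52.0%). These are matches of letters, given without a test.

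Of costimulatory and inhibitory receptors, 2 of 9 tested genes were called lower and 0 higher, with a median of -0.13. Cd28, the main costimulatory receptor of T cells, stood at 4.83 and 6.03 against 11.40 and 9.87 (-5.21 ± 0.67, adjusted p = 0.0102). Pdcd1, which encodes the inhibitory receptor PD-1, stood at 4.54 and the floor against 8.61 and 7.69 (-3.92 ± 0.61). Its adjusted p of 0.0252 became 0.0503 without the TCRab CD8aa array of experiment 2. Ctla4, the inhibitory counterpart of Cd28, was bright in both subsets and stood at 11.95 and 12.27 against 13.44 and 13.56, a difference of -1.39 ± 0.28 that was not called (adjusted p = 0.074). Values for Lag3, Cd160, Cd96 and the TNF receptor family members Tnfrsf9, Tnfrsf18 and Tnfrsf1b lay between -0.40 and 0.93, none of them called. A probe set shared by Lilrb4a and Lilr4b, inhibitory immunoglobulin-like receptors, was called lower, at 8.84 and 9.04 against 11.18 and 11.03 (-2.17).

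Receptors of the Ly49 family, lectin-like receptors for MHC class I encoded in the natural killer gene complex, went the other way. Of 13 genes in the list 5 had a probe set of their own, 1 of these lay below the filter, and the other 4 were called higher with a median of 3.50. Klra5 stood at 11.63 and 9.92 in TCRab CD8aa and at 6.44 and 6.03 in TCRab CD8ab (4.54 ± 0.44, adjusted p = 0.00253). Klra6 stood at 10.02 and 9.45 against 5.72 and 6.52, and Klra7 at 9.88 and 9.57 against 5.67 and 7.01. Klra3 stood at 8.95 and 9.59 against 6.07 and 6.75 (2.86 ± 0.38, adjusted p = 0.0122), and its adjusted p was 0.0503 without the TCRab CD8aa array of experiment 2. The largest increase of the whole comparison, 6.02, was on a probe set that the annotation gives to Klra22, Klra16 and Klra1 together, at 9.55 and 10.94 against the floor and 4.52. These genes are near-identical in sequence and probe sets can take signal from several of them, so the increase belongs to the family and not surely to each gene.

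Of the other natural killer lectins and activating receptors, 1 of 8 tested genes was called higher, with a median of 0.83. Without overlap 4 lay higher, beside 10.2% over all genes. Klrb1a, an NKR-P1 receptor, stood at 11.07 and 12.31 against 7.57 and 7.17 (4.32 ± 0.42, adjusted p = 0.00253). Klrd1, which encodes the CD94 chain that pairs with NKG2 receptors, stood at 13.69 and 13.54 against 11.95 and 12.24, but the 1.52 ± 0.31 was not called (adjusted p = 0.0774). Cd244a, the 2B4 receptor, differed by 0.95 ± 0.28 and Klrk1, the NKG2D receptor, by 1.61 ± 0.81, neither of them called. Defining natural killer cell markers were dim: Ncr1 and Itga2 lay below the filter on all 4 arrays. Eomes, a T-box factor that natural killer cells need, lay lower without overlap, with a signal of 35.7 and 1.7 against 141 and 134, and was not called (adjusted p = 0.343). The summed signal of the 5 measured markers of that list was 19100 and 23300 in TCRab CD8aa and 7260 and 10800 in TCRab CD8ab, and nearly all of it was Klrd1 and Cd244a.

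Adaptor chains through which such receptors signal were called in part. Among 8 tested signalling chains and SAP family adaptors, 2 were called higher and 0 lower, with a median of 0.36. Fcer1g, the FcR gamma chain, stood at 10.01 and 9.21 in TCRab CD8aa, against the floor and 5.23 in TCRab CD8ab (5.03 ± 0.60, adjusted p = 0.00739). A second Fcer1g probe set lay below the filter and was not tested. Tyrobp, which encodes DAP12, stood at 13.56 and 12.88 against 7.75 and 8.84 (4.92 ± 0.53, adjusted p = 0.00406). Both chains carry tyrosine motifs that recruit Syk family kinases. In contrast, Sh2d1a, the SAP adaptor of SLAM family receptors, stood at 6.61 and 5.52 against 8.68 and 8.04, a difference of -2.30 ± 0.54 that was not called (adjusted p = 0.127). Both chains are also made by mast cells and macrophages. Of the mast cell and basophil markers, 7 of 10 lay below the filter on all 4 arrays, and Kit, the stem cell factor receptor, made up most of the sum of 3090 and 1690 against 1620 and 711. Of 11 macrophage and monocyte markers, 4 lay below the filter on all 4 arrays, among them Lyz2 and Itgam at the floor. That list summed to 924 and 592 against 1010 and 1110, with Cd14 at 181 and 210 against 164 and 395. Dendritic cell and MHC class II markers summed to 2390 and 1140 against 1980 and 1480. Of these, Itgax had 1690 and 625 against 682 and 731. The part of such cells in the Fcer1g and Tyrobp values was not tested.

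Among 24 tested genes of proximal T cell receptor signalling, 3 were called higher and 0 lower, with a median of 0.04. Without overlap of the arrays 4 lay higher and 3 lower, beside 10.2% and 12.3% over all genes. Lat2, a LAT-like adaptor typical of B cells, mast cells and natural killer cells, stood at 12.14 and 12.23 against 9.94 and 8.96 (2.73 ± 0.33, adjusted p = 0.00761), and its second probe set gave 2.12. Tec and Txk, kinases of the Tec family that act on phospholipase C, stood at 11.05 and 10.99 against 9.32 and 8.84 (1.94 ± 0.29, adjusted p = 0.022) and at 12.08 and 13.02 against 10.13 and 11.37 (1.80 ± 0.31, adjusted p = 0.0357). A second, dimmer Txk probe set gave 1.36 and was not called. Tec and Txk are neighbours on the same strand with no protein-coding gene between them. Both lost the call without the TCRab CD8aa array of experiment 2, at adjusted p = 0.275 for Tec and 0.21 for Txk, with differences of 1.77 and 1.73. Plcg2, a phospholipase C isoform of B and myeloid cells, lay higher without overlap but was not called (1.47 ± 0.35, adjusted p = 0.134). The values for Zap70, Fyn, Lat and Lcp2, the kinases and adaptors of the conventional receptor complex, were 0.11, 0.14, 0.02 and 0.05.

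The promoters of this neighbouring pair, chr5:72752778-72753027 and chr5:72868449-72868698, and that of Fcer1g, chr1:171234350-171234599, all on the minus strand of GRCm38.p6 and from RefSeq, are shown because these signalling genes rose together. The ETS core occurs 1 time before Txk, 4 times before Tec and 3 times before Fcer1g, and the CACCC box 1 time, 0 times and 1 time.
Txk: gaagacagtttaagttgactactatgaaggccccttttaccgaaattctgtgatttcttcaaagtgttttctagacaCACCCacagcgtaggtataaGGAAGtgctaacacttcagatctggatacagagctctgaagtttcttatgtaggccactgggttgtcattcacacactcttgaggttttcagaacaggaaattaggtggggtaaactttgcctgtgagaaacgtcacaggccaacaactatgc
Tec: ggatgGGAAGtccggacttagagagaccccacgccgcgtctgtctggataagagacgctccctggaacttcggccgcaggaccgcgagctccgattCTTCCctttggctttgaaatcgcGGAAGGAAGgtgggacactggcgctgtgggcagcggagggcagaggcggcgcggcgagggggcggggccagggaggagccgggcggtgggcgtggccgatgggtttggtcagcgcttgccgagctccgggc
Fcer1g: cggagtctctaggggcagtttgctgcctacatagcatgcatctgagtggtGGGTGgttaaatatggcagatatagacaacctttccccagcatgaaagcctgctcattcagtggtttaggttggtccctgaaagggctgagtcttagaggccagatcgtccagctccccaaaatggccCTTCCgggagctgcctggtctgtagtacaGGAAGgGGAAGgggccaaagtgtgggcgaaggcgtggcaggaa

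Of 22 tested negative regulators of signalling, 0 were called on the probe set that stands for the gene, with a median of -0.24. Rgs10, a GTPase activating protein for G protein alpha subunits, is an exception on a second, slightly dimmer probe set, which stood at 7.06 and 6.58 against 10.53 and 9.52 (-3.20 ± 0.38, adjusted p = 0.00739). The brighter Rgs10 probe set gave -2.45 ± 0.51 (adjusted p = 0.0804), in the same direction. Dusp2, a phosphatase of MAP kinases, had -1.65 ± 0.33 (adjusted p = 0.066).

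Transcription factors changed in both directions. Of 28 tested lineage factors, 2 were called higher and 5 lower, with a median of -0.22. Zbtb16, which encodes PLZF, a factor of innate-like T cells, stood at 8.54 and 8.93 in TCRab CD8aa and at the floor on both TCRab CD8ab arrays, so it was at least 27.9-fold higher (adjusted p = 0.00402). A second Zbtb16 probe set lay below the filter and was not tested. Irf8, an interferon regulatory factor of B and myeloid cells, stood at 11.57 and 11.15 against 9.0 and 8.28 (2.72 ± 0.29, adjusted p = 0.00402). Its relative Irf4, induced by antigen receptor signals in T cells, stood at 6.96 and 9.37 against 10.78 and 12.25 (-3.35 ± 0.36, adjusted p = 0.00402). The other 5 tested interferon regulatory factors lay between -0.76 and 0.01 and were not called.

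Klf2, which keeps resting T cells quiescent and recirculating, stood at 5.18 and the floor in TCRab CD8aa, against 10.02 and 7.94 in TCRab CD8ab (-4.42 ± 0.67, adjusted p = 0.0222). Klf3, of the same family, stood at 6.42 and 5.36 against 9.78 and 8.06 (-3.03 ± 0.51), and a second probe set gave -3.74. Rora, a nuclear receptor, stood at 7.65 and 6.09 against 11.07 and 8.40 (-2.86 ± 0.46), and Satb1, a chromatin organiser of thymocytes, at 7.75 and 6.23 against 10.57 and 8.48 (-2.54 ± 0.45). In both genes the experiment 1 arrays were the higher ones within each subset. Without the TCRab CD8aa array of experiment 2, the adjusted p was 0.0506 for Klf3 and 0.102 for Satb1. Eya2, a phosphatase and transcriptional coactivator, was at the floor and 5.90 against 8.01 and 8.57 (-3.37 ± 0.54). Gata3, Id2, Id3, Klf6 and Bcl6 lay between -0.26 and 0.02, none of them called.

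Most effector genes that were measured did not pass the test. Of 14 tested granzyme and cytotoxic granule genes, 1 was called lower and 0 higher, with a median of 0.14. Gzmk stood at 6.91 and 7.85 against 9.65 and 11.10 (-2.99 ± 0.45, adjusted p = 0.0207). Gzma, Gzmb and the pore-forming Prf1 had differences of 0.10, -0.06 and 0.01. Of 9 tested cytokines and TNF family ligands, 1 was called lower. Tnfsf11, which encodes RANKL, stood at 4.28 and 5.47 against 8.16 and 8.11 (-3.26 ± 0.58, adjusted p = 0.042), and it lost the call without either TCRab CD8aa array (adjusted p = 0.0541 and 0.0644), after quantile normalization (0.0578) and with the floor at the 10th percentile (0.0527). Ifng, which encodes interferon gamma, stood at 7.22 and 9.17 against 9.25 and 11.53, with an adjusted p of 0.0597. Of this list 14 of the 23 genes on the array were below the filter.

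Tnfrsf21, death receptor 6, stood at 7.18 and 7.84 in TCRab CD8aa and at the floor on both TCRab CD8ab arrays, at least 11.9-fold higher (adjusted p = 0.0343). With the floor at the 30th percentile the difference was 2.55 and it was no longer called (adjusted p = 0.0738). It was the 1 called gene of 7 tested death and TNF receptors, whose median was 0.67. In the list of TGF-beta pathway genes, to which Fgl2 was added, 2 of 11 were called higher and 0 lower, with a median of 0.14. Tgfb3, a TGF-beta ligand, stood at 11.25 and 10.75 against 8.68 and 9.34 (1.99 ± 0.36, adjusted p = 0.0449). Without the TCRab CD8aa arrays of experiments 1 and 2 in turn its adjusted p was 0.104 and 0.0605, after quantile normalization it was 0.0509, and a dimmer second probe set gave 0.73. Fgl2, a fibrinogen-like protein, stood at 12.13 and 12.44 against 10.58 and 10.38 (1.81 ± 0.29), with an adjusted p of 0.0253 that became 0.243 without the TCRab CD8aa array of experiment 2. Entpd1, the CD39 ectoenzyme that breaks down extracellular ATP, stood at 9.68 and 9.34 against 5.37 and 6.83 (3.41 ± 0.56, adjusted p = 0.0284).

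Apart from Il7r, no cytokine receptor of 18 tested was called, and the median was -0.41. Il2rb, the shared beta chain of the receptors for interleukins 2 and 15, had a difference of 0.00, and Kit had 1.42 ± 0.32 (adjusted p = 0.11). Of 16 tested chemokines and chemokine receptors, 0 were called in limma, with a median of -0.57. Cxcr3, a receptor for interferon-induced chemokines, stood at 8.79 and 8.55 against 10.67 and 10.06 (-1.70 ± 0.31, adjusted p = 0.0504). Ccr9, the gut-homing receptor, stood at 8.30 and 8.79 against 9.74 and 10.14 (-1.40 ± 0.33, adjusted p = 0.134). Of 17 integrins and homing molecules 0 were called. Without overlap of the arrays 5 lay lower and 2 higher, beside 12.3% and 10.2% over all genes. Itgal, the alpha chain of LFA-1, had -2.63 ± 0.60 (adjusted p = 0.12) and Cd44 -2.44 ± 0.57 (adjusted p = 0.126). Itgae and Itgb7, the 2 chains of the integrin that binds E-cadherin on epithelium, had 0.14 and -0.20.

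Several genes best known from epithelia were among the largest increases. Of 11 tested genes in a list of epithelial-type adhesion and junction genes, 4 were called higher and 0 lower, with a median of 0.69. The list was written with earlier results of these data known. It takes in Itih5 and leaves out the called Pkp4 (1.55), so its count describes the list and tests no theme. Itih5, an inter-alpha-trypsin inhibitor heavy chain that binds hyaluronan, stood at 10.82 and 11.35 against 6.34 and 6.58 (4.62 ± 0.32, adjusted p = 0.00062). Its second probe set lay below the filter and was not tested. Pkp2, a desmosomal plakophilin, stood at 9.95 and 11.18 against 6.66 and 7.09 (3.69 ± 0.34), and a second probe set gave 3.02. Epcam, an epithelial adhesion molecule, stood at 9.27 and 9.01 against 6.25 and 5.25 (3.39 ± 0.50, adjusted p = 0.0207). Myo6, a motor that moves toward the minus end of actin filaments, stood at 10.04 and 13.09 against 7.30 and 9.15 (3.34 ± 0.38). A second Myo6 probe set gave 3.10 and another, dimmer one 0.73, which was not called.

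Enterocyte markers were read beside these genes. Their summed signal, Epcam included, was 3250 and 1750 in TCRab CD8aa and 2550 and 1540 in TCRab CD8ab. Without Epcam it was 2630 and 1230 against 2470 and 1510, higher in experiment 1 and lower in experiment 2. The part of enterocyte RNA in the values of the epithelial-type genes was not tested. Of the 16 markers measured, 1 lay higher without overlap (Epcam itself) and 1 lower, and Reg3g was at the floor on all 4 arrays. Cdh1, which encodes E-cadherin, had a signal of 193 and 268 against 168 and 267, and Fabp1, the liver-type fatty acid binding protein, 418 and 136 against 492 and 171. Other junction genes differed by less: Ctnna1 had 0.69 ± 0.30 and Dsp 0.77 ± 0.36, and neither was called. The enterocyte sum was far higher on the TCRgd CD8aa array of experiment 2, at 31800. That array enters this comparison through the estimate of the spread, and its values are also used in the comparison with TCRgd CD8aa below. Leaving that array out gave 187 called probe sets in place of 67, and all 67 were among them. Leaving out the TCRgd CD8aa array of experiment 1 instead, whose enterocyte sum was 2080, gave 196, and a fit of the 4 TCRab arrays gave 189.

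Further large increases were in enzymes. Adh1, an alcohol dehydrogenase that also oxidises retinol, stood at 12.04 and 9.93 against 8.33 and 7.01 (3.31 ± 0.34, adjusted p = 0.00321). Napsa, an aspartic protease of lung and kidney, stood at 10.90 and 10.35 against 6.87 and 7.86 (3.26 ± 0.45, adjusted p = 0.014). Gramd3 was among the largest falls, at 5.29 and 4.54 against 9.82 and 7.77 (-3.88 ± 0.69), and its adjusted p of 0.042 became 0.0771 without the TCRab CD8aa array of experiment 2, 0.0515 after quantile normalization and 0.115 with the floor at the 10th percentile. A second Gramd3 probe set gave -2.40 and was not called. The remaining called genes with a symbol of their own were outside the naming rule and are named after their values were seen. Higher were Myo1e (3.13), Tbc1d24 (3.06), Osbpl5 (2.94), Selenbp1 (2.70), Mcam (2.36), Ddc (2.32), Tent5c (1.78), Pcyt1a (1.73, with 0.44 on a second probe set that was not called) and Pkp4 (1.55). Lower were Lgals1 (-2.89), Kcnn4 (-2.78), Ms4a6b (-2.74) and Scin (-2.47). Ddc is the decarboxylase that makes dopamine and serotonin, Lgals1 encodes galectin-1, and Kcnn4 is a calcium-activated potassium channel. On the called probe set of each of them the arrays of the 2 subsets did not overlap.

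Antigen receptor segments were called at 2 probe sets, again named after their values were seen. Trgv4, a gamma chain variable segment, stood at 13.02 and 12.61 in TCRab CD8aa and at 11.56 and 10.74 in TCRab CD8ab (1.66), and at 15.10 and 14.26 in TCRgd CD8aa. Ighm, the immunoglobulin mu heavy chain, was called on 1 of its 16 probe sets (1.85), whose arrays overlapped. The other tested Ighm probe sets gave -0.90 to 0.85 and were not called. The B cell and plasma cell markers other than Ighm, 8 genes, summed to 820 and 975 in TCRab CD8aa and to 1430 and 1590 in TCRab CD8ab. Their part in the Ighm value was not tested.

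**Figure D3:**
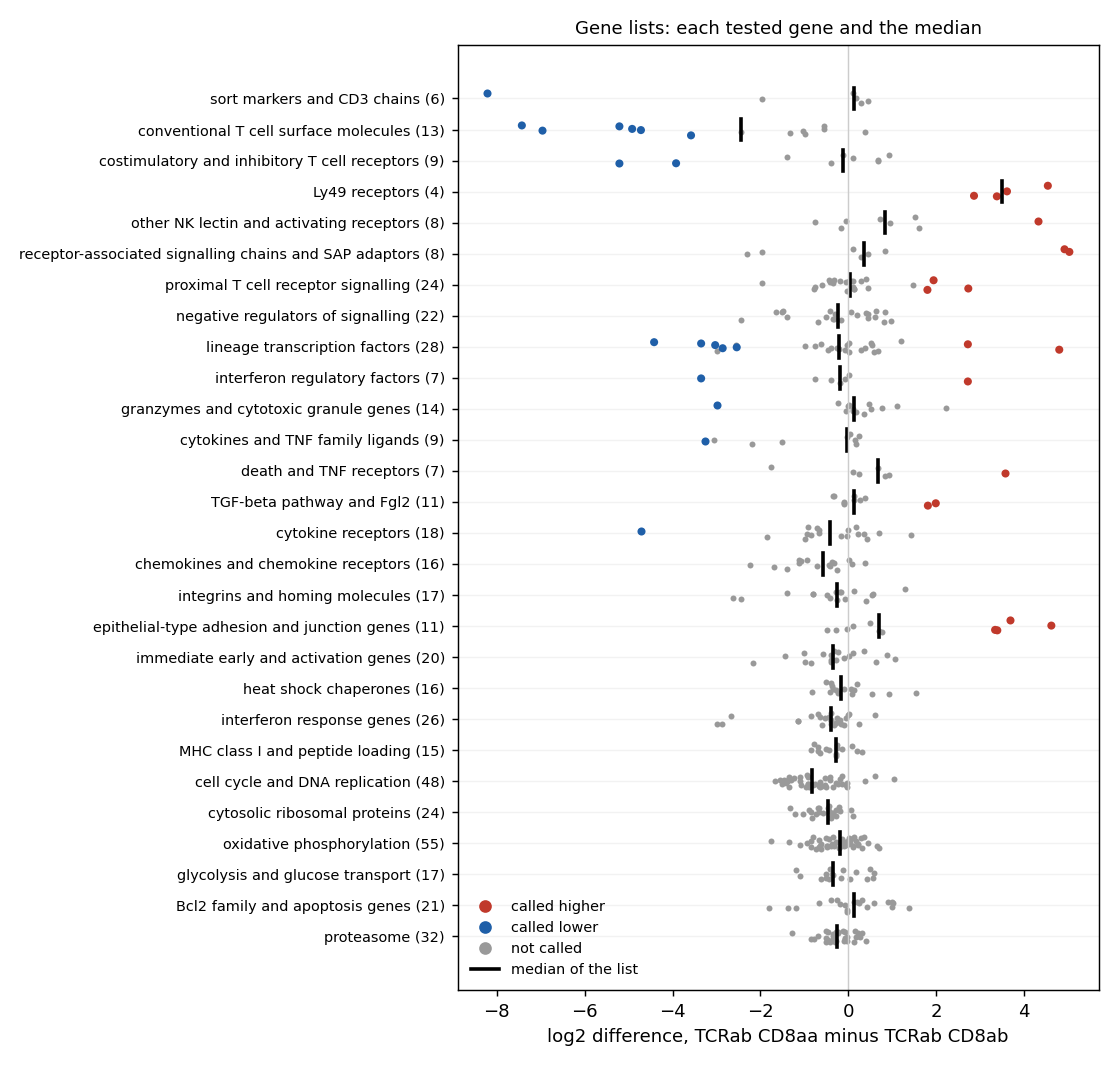
Log2 difference between TCRab CD8aa and TCRab CD8ab for every tested gene of each list (points, with the number tested in parentheses) and the list's median (black bar). Called genes (red higher, blue lower) gather in lists of surface receptors, adaptors, transcription factors and epithelial-type genes, and 13 of the 28 lists hold none. The lists were written with earlier results of these data known.

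Lists of general cell state held no called gene in limma. Their medians ran from -0.82 to 0.12, beside -0.05 over all tested genes. Only the Bcl2 family and apoptosis list lay above that value. Cell cycle and DNA replication genes stood lowest, with a median of -0.82 (-0.85 in experiment 1 and -0.81 in experiment 2). Of its 48 tested genes 45 had a value below 0 and 21 lay lower without overlap, beside 12.3% over all genes. Kif23, a mitotic kinesin, stood at 7.70 and 8.93 against 9.47 and 10.49 (-1.66 ± 0.33, adjusted p = 0.066). Tubb5, a beta tubulin, stood at 11.22 and 10.42 against 12.47 and 12.17 (-1.50 ± 0.30, adjusted p = 0.0711). Ccnd2, a G1 cyclin, was the highest of the list at 1.03. Genes of such a list vary together, so their count is not a count of independent observations.

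Cytosolic ribosomal protein genes had a median of -0.46, with Rpl13a at -1.33 ± 0.31 and Rpsa at -1.03 ± 0.29, neither of them called. Interferon response genes had a median of -0.40 over 26 tested. Ifit3 stood at 4.76 and 4.26 against 7.90 and 6.86 (adjusted p = 0.137), and Iigp1, an immunity-related GTPase, at the floor on both arrays against 6.57 and 7.27 (adjusted p = 0.163). The immunoproteasome subunits Psmb8 and Psmb9 had -0.85 ± 0.29 and -0.69 ± 0.28, and the MHC class I list a median of -0.28. Among immediate early genes, with a median of -0.34 over 20, Gadd45b had -2.16 ± 0.43 (adjusted p = 0.0698) and Nr4a1, an indicator of antigen receptor signals, -0.98 ± 0.28 (adjusted p = 0.23). Heat shock chaperones had a median of -0.17, with Hspa8 at -0.82 ± 0.27 and Hspa2 at 1.53 ± 0.51. Oxidative phosphorylation genes had -0.18 over 55 (Cox6b1 -1.75 ± 0.58, Atp5d -1.11 ± 0.39), glycolysis -0.36 (Hk2 -1.10 ± 0.43, Aldoa -0.63 ± 0.33) and the proteasome -0.25 (Psmd3 -1.28 ± 0.49). The other tested Atp5d probe sets gave -0.91 to 0.01, and a second Aldoa probe set gave 0.09. The Bcl2 family and apoptosis list had a median of 0.12 and members on both sides, such as Birc3 at -1.18 ± 0.31, Casp1 at -1.37 ± 0.37 and Bcl2 at 0.91 ± 0.30.

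The called probe sets were then read in the third subset, which shares the CD8aa form but carries a gamma delta receptor. The direct comparison uses the same TCRab CD8aa arrays, so the values are given side by side. The TCRgd CD8aa array of experiment 2, with an enterocyte sum of 31800 against 2080 in experiment 1, gives 1 of the 2 values of that subset. Its part in these values was not tested, and a low count of calls does not show that the subsets are alike. Between TCRab CD8aa and TCRgd CD8aa limma called 2 of 7760 probe sets (0.0258%), 1 of them among the 67. That one is the probe set of Klra22, Klra16 and Klra1, which stood at 9.55 and 10.94 in TCRab CD8aa and at 5.14 and 6.43 in TCRgd CD8aa (4.46 ± 0.50, adjusted p = 0.0402). For 53 of the 67 the 2 CD8aa subsets lay within 1 log2 unit of each other. How many of all 7760 tested probe sets did so was not counted, so the 53 cannot be read as particular to the called ones. Fcer1g stood at 10.41 and 9.02 in TCRgd CD8aa, Itih5 at 11.02 and 10.88, and Cd5 at the floor and 6.65, each within 1 unit of TCRab CD8aa. Klra3, at 8.80 and 8.81, lay as near, unlike the other Ly49 genes with a probe set of their own that were called.

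**Figure D4:**
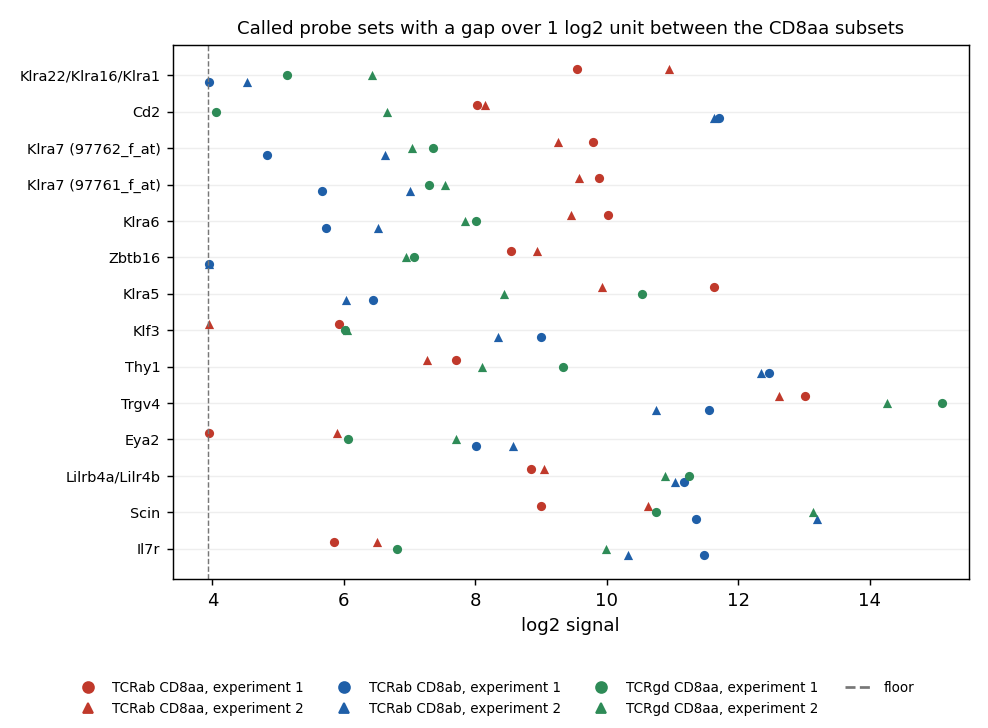
Log2 signal on all 6 arrays for the 14 called probe sets whose means in the 2 CD8aa subsets lie more than 1 log2 unit apart, in order of that gap; circles are experiment 1, triangles experiment 2, and the dashed line is the floor. In 7 of them TCRab CD8aa was above TCRgd CD8aa, among them those of Klra5, Klra6 and Klra7, the probe set shared by Klra22, Klra16 and Klra1, and Cd2, and in 7 it was below.

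In 14 called probe sets the CD8aa subsets lay more than 1 unit apart, and 13 of these were not called in the direct test. Klra7 stood at 7.30 and 7.53 in TCRgd CD8aa and Klra6 at 8.01 and 7.84, in each case between the other subsets. Zbtb16 also lay between, at 7.07 and 6.94. Cd2 was lowest in TCRgd CD8aa, at 4.05 and 6.66. Scin, an actin-severing protein, stood at 10.75 and 13.14 in TCRgd CD8aa against 8.99 and 10.62 in TCRab CD8aa (difference -2.14 ± 0.30, adjusted p = 0.121). The Lilrb4a and Lilr4b probe set stood at 11.25 and 10.89 in TCRgd CD8aa (difference -2.13 ± 0.30, adjusted p = 0.121). For these 2 probe sets TCRab CD8aa was the lowest of the 3 subsets in both experiments. Il7r was split between experiments in TCRgd CD8aa, at 6.81 and 9.99.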

How the data were processed

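RNA of 6 sorted samples was measured on 1 Affymetrix array each. The authors deposited intensity values, 1 signal per probe set and array on a linear scale, made with MAS5 per the submitters' processing notes (version not given in the sources used here). The trimmed mean was 500.4 on every array. Detection calls were not used. Of 12488 probe sets, 66 controls were left out, and names came from the platform annotation, where 10855 entries have 1 symbol.

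Floor, filter and threshold are given above. limma 3.58.1 in R 4.3.3 was fitted on all 6 arrays with terms for subset and experiment and an intensity trend in eBayes. Experiments are a block because the series' design text says that the 3 subsets of an experiment were sorted from 1 pool; deviations from the subset means correlated between subsets at r = 0.651, 0.754 and 0.634. Arrays shared at most 45 equal values. A gene with several tested probe sets is represented in lists by the brightest. Among called genes, Fcer1g, Fgl2, Ighm, Itih5, Pkp2, Rgs10, Rora, Scin and Zbtb16 also had probe sets below the filter, which were not tested.

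Named genes were the 15 largest called, non-overlapping differences in each direction with 1 symbol, every called list member, the 2 members with the smallest p of lists with no call, and the sort markers; other values are given to place these. The comparison, the members and the lists were chosen with earlier results of these data known. In simulated arrays (7507 probe sets), the blocked fit called 2%, 48%, 66% and 72% of changes of 1, 2, 3 and 4 log2 units, with 1 false call, and the fit without a block 0%. The simulation used an added experiment shift and the noise of the blocked fit, so it cannot choose between the fits. Changes were placed only in probe sets far above the floor, so the shares do not hold for dim ones. The number of arrays limits the precision. Alternatives were other floors, filters and scaling, no trend, no block, fewer arrays and an adjusted p under 0.1.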

Additional observations from a re-analysis of the deposited data

How the results depend on the processing

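Of the 67 called probe sets (42 higher, 25 lower), those still tested kept their sign under each alternative run. Changing the block, trend, filter or TCRgd CD8aa arrays leaves the difference itself as it was. The other runs reuse the same arrays for probe sets picked for large differences, so the kept sign is no independent support. The count of calls depended on the model. It was 0 without the replicate block and 0 without the filter on dim probe sets (922 at an unadjusted p under 0.05, smallest adjusted p 0.522). Without the intensity trend it was 14 (7 higher, 7 lower). With only the 4 arrays of the 2 subsets it was 189 (89 higher, 100 lower), and at an adjusted p under 0.1 it was 110 (64 higher, 46 lower). The filter at the 60th percentile called 42 lower probe sets. Quantile normalization, the other floors, an added constant and the filter over all 6 arrays gave 64 to 75.

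Leaving out 1 array gave 43 (without the TCRab CD8aa array of experiment 2) to 560 (without the TCRab CD8ab array of experiment 1), with 23 to 272 higher and 20 to 288 lower. Without the TCRab CD8aa array of experiment 1 it was 121, without the TCRab CD8ab array of experiment 2 it was 101, and without the TCRgd CD8aa arrays of experiments 1 and 2 it was 196 and 187. These fits, and that of 4 arrays, have few residual degrees of freedom, so limma leans on its prior. Cd3d ranged from -0.11 to 0.68 and Cd3e from -0.20 to 0.39, the only named genes whose sign turned (without the TCRab CD8aa array of experiment 2 and the TCRab CD8ab array of experiment 1). Of 40 called named genes, 10 kept the call without the trend: Cd8b1, Cd5, Cd6, Thy1, Pdcd1, Rgs10, Zbtb16, Itih5, Klra5 and Pkp2. Over the alternatives, the median of the conventional surface molecules ran from -3.58 to -1.85, of the Ly49 receptors from 2.86 to 4.14, of the epithelial-type genes from 0.28 to 2.06 and of the cell cycle list from -0.92 to -0.66, while medians near 0 could turn, as for costimulatory and inhibitory receptors (-0.25 to 0.22). Why counts changed was not tested. Signals at the floor on at least 1 array limit Zbtb16, Tnfrsf21, Fcer1g, Klf2, Cd5, Pdcd1 and Eya2. They also limit the second probe sets of Klf3 and Pkp2 and the probe set shared by Klra22, Klra16 and Klra1. The same holds for a called probe set shared by Klra9 and Klra3.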

Other observations

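Some genes stood apart in both experiments without passing the threshold, and were picked after their values were seen. Htra3, a secreted serine protease, stood at 9.46 and 7.69 in TCRab CD8aa against 5.35 and 5.65 in TCRab CD8ab (adjusted p = 0.0502). Hhex, a homeobox factor, stood at 6.89 and 8.91 against 4.73 and 5.15 (adjusted p = 0.066), and Vipr2, a receptor for vasoactive intestinal peptide, at 7.05 and 6.57 against 4.44 and 4.09 (adjusted p = 0.13). In the other direction, Penk, which encodes the precursor of the enkephalins, stood at 6.16 and 5.74 against 10.41 and 8.22 (adjusted p = 0.0604). Tnf stood at 4.05 and the floor against 7.48 and 6.61 (adjusted p = 0.245), and Tnfsf4, the OX40 ligand, at the floor and 4.76 against 7.03 and 6.81 (adjusted p = 0.146).

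In some genes, picked after their values were seen, the experiments gave opposite differences. Igkv6-23, an immunoglobulin kappa variable segment, stood at 6.42 and 8.19 in TCRab CD8aa and at 12.57 and 6.90 in TCRab CD8ab. Jchain, the joining chain of secreted antibodies, stood at 5.95 and 7.72 against 9.40 and 6.67. In both genes the TCRab CD8ab array of experiment 1 was the highest of the 4, and neither was called.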
